A study of Glycine max with 4 samples.

Results

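Chromosome 17 of soybean (Glycine max) carried 547 of the 11436 stretches of open chromatin listed for early-maturation embryos. These are all peaks of the deposited list on that chromosome, and they make up 5.10% of the 10719 peaks on the 20 chromosomes. The embryos came from the cultivar Williams 82, the source of the soybean reference genome, and were dissected by hand from seeds 6 to 7 mm long. There was no second genotype, treatment or stage. Nuclei of 2 biological replicates, 50000 per reaction, were profiled by ATAC-seq, and each replicate was sequenced in a single-end and a paired-end run, of which only the paired-end run entered the authors' peaks. The labels do not say how many embryos or plants went into a replicate.

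ATAC-seq uses the transposase Tn5, which inserts sequencing adapters mainly into DNA that nucleosomes leave free. Places with many insertions are called as peaks, and in plants such places typically include promoters and other regulatory DNA. Soybean chromosomes typically have gene-rich arms toward both ends and a long, repeat-rich region around the centromere, in which genes are scarce and chromatin is mostly compact. Where these regions lie on chromosome 17 was not measured here. In early maturation the cotyledons of the embryo fill with storage protein and oil.

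The peak list holds a position and no height, score or read count, and it names no replicate. The depth behind each peak is therefore unknown, and no peak carries a replicate error. The deposited list is named an intersection, and how it was formed is not stated. A listed width or gap may thus belong to an overlap between calls, which was not tested. Chromosomes are parts of the same list and not replicates, so chromosome 17 is described by its values and its place among the 20, with no test. The chromosome and the stretches singled out on it were chosen by the measured positions and widths of their peaks, so those values are given as a description and support nothing beyond it. Positions follow the list, with the first base counted as 1, and no source used here names the genome build. No gene is assigned to a peak, because the coordinates of the gene table used here were not shown to match these positions. A gene edge was found within 500 bp of 16.1% of the 547 midpoints. After 12 shifts of 5 to 200 kb the share was 11.5% to 17%, below the unshifted share in 10 and above it in 2.

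Chromosome 17 was short but well filled with peaks. Its peaks spanned 41.6 Mb, the fourth shortest span of the 20, from a peak at 17136 to 17524 to a last one at 41579818 to 41580472. Its density was 13.2 peaks per Mb, second only to chromosome 11 with 13.8. The other 19 chromosomes averaged 11.3 ± 1.14 peaks per Mb (SD, n = 19 chromosomes). By number of peaks it stood ninth, between the 365 of chromosome 16 and the 656 of chromosome 18. Its peaks covered 324 kb, or 0.778% of the span, which was the highest covered share of any chromosome. Chromosome 10 followed with 0.723%, and the lowest was 0.492% on chromosome 3.

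The chromosome fell into a dense first part, a long sparse middle and a short dense end. The bounds of these parts, 16 and 37 Mb, were set after the counts in windows of 1 Mb had been seen. The first 16 Mb held 331 peaks, the 21 Mb of the middle held 109, and the last 4.58 Mb held 107. In density these were 20.7, 5.19 and 23.4 peaks per Mb. The first part was thus 3.99 times as dense as the middle, and the last part 4.50 times. The middle covered 50.5% of the span and held 19.9% of the peaks. It was not centred on the chromosome: its centre lay at 63.7% of the span.

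**Figure D1:**
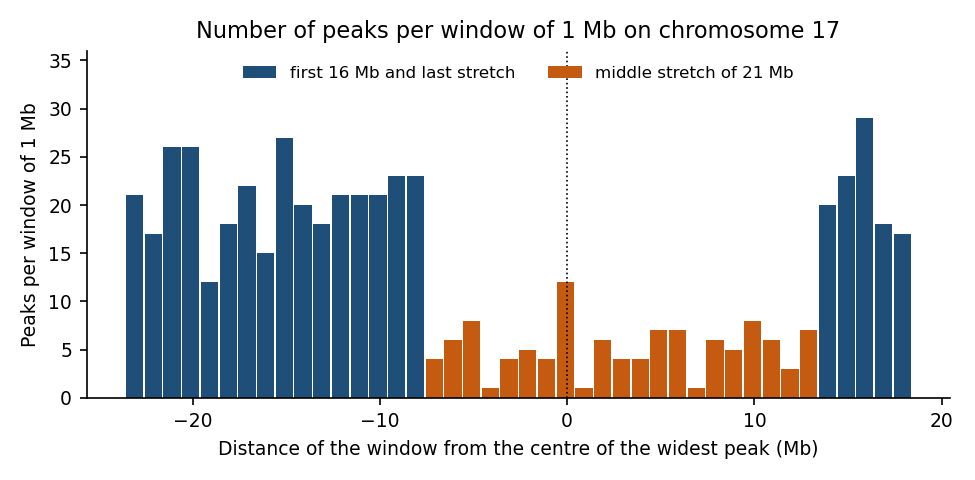
Number of peaks (vertical axis) in each window of 1 Mb along chromosome 17, by distance of the window from the centre of the widest peak (horizontal axis, in Mb; dotted line at 0). Blue bars are the first 16 Mb and the last stretch, orange bars the middle of 21 Mb, where all windows but one hold 8 peaks or fewer; the last bar stands for a window that ends after 580 kb.

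The dense first part began at the chromosome's start and ended abruptly. Each of its 16 windows of 1 Mb held at least 12 peaks, and the counts ran from 12 in the fifth window to 27 in the ninth. The window before 16 Mb held 23 peaks and the window after it 4. Over 5 Mb on either side of 16 Mb the counts were 109 and 23, a difference of 86 peaks. The largest such difference on any other chromosome was 87, on chromosome 4, and the other 19 averaged 62.5 ± 14.8 (SD). A block of consecutive windows with at least 12 peaks each was longer only on chromosome 6, with 18 windows from its start. The others had 4 to 15 windows in their longest block. This place depended on the limit. With at least 10 peaks per window chromosome 17 again had 16 windows and took the third place, after chromosome 6 with 18 and chromosome 5 with 17. With at least 15 it had the longest block, 11 windows from 5 to 16 Mb, before chromosomes 4 and 6 with 10 each.

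The dense part reached well beyond the first 25% of the span, which is the outer part by which chromosomes were compared. These 25% held 211 peaks, or 38.6% of the total, at 20.3 per Mb, the highest density of any chromosome for this part. The dense start was singled out with such counts known, so this share carries no interval. Chromosomes 6, 11 and 4 came close, with 19.5, 19.4 and 19.3 per Mb. Counted over the first 10 Mb, chromosome 17 took the third place, with 204 peaks, after 233 on chromosome 4 and 205 on chromosome 6. The last 25% held 138 peaks at 13.3 per Mb, and the inner part 198 at 9.52 per Mb. Only chromosome 13 had a denser inner part, with 11.9 per Mb. On chromosome 17 the inner peaks lay mostly in the continuation of the dense start. Between 20% and 40% of the span it held 171 peaks at 20.6 per Mb, where the other 19 chromosomes had 3.56 to 14.7 and averaged 8.67 ± 3.97 (SD). At 75% to 90% of the span the order was turned around. There chromosome 17 had 35 peaks at 5.61 per Mb, below the 7.00 to 22.4 of the other 19, which averaged 14.7 ± 4.17 (SD). These bounds were also chosen after the profile had been seen.

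**Figure D2:**
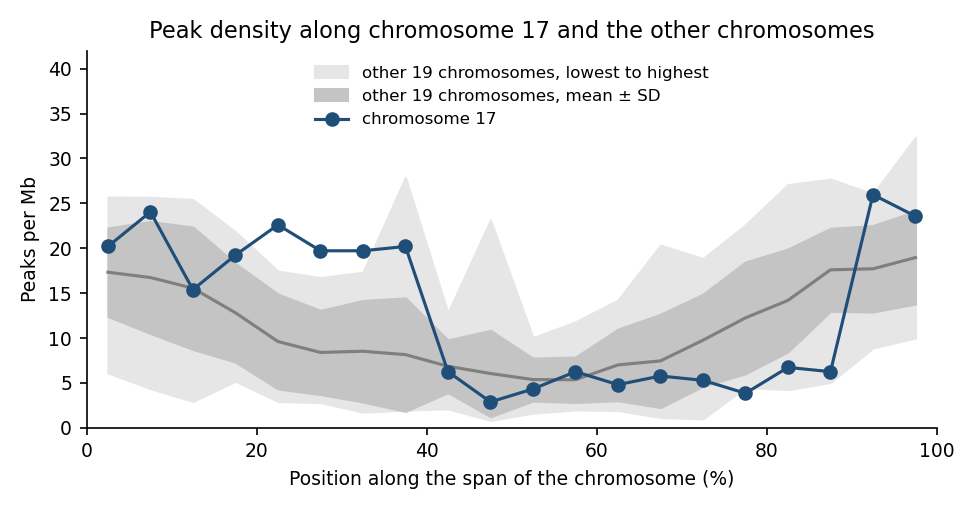
Peak density (vertical axis, peaks per Mb) in 20 equal bins along the span of each chromosome (horizontal axis, percent). The blue line is chromosome 17, the grey line and dark band are the mean and SD of the other 19, and the light band their range; chromosome 17 lies between 15.4 and 24.05 per Mb up to 40% of its span and then at or under 6.73 per Mb until 90%.

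The last part was as dense as the first but much shorter. Its 5 windows held 20, 23, 29, 18 and 17 peaks, and the last of them ended after 580 kb. The window from 39 to 40 Mb, with 29, was the fullest of the chromosome. It was a modest maximum: only 4 chromosomes had a lower one, and the fullest window of chromosome 18 held 49. The step into this part was also abrupt, from 7 peaks in the window before 37 Mb to 20 in the window after it. Over the last 10% of the span the density was 24.8 per Mb, the third highest, against 18.3 ± 4.14 (SD) on the other 19.

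The sparse middle had few peaks throughout but no empty window. Of its 21 windows, 20 held 1 to 8 peaks, and the window from 23 to 24 Mb, which contains the widest peak, held 12. The sparsest 10 Mb ran from 18.8 to 28.8 Mb with 47 peaks, the fifth highest minimum of the 20 chromosomes. All 14 stretches of more than 500 kb without a peak were in the middle. The longest ran from 16263940 to 17436420, a length of 1.17 Mb, directly after the end of the dense first part. The next were 1.13 Mb from 20595834 to 21721354 and 1.06 Mb from 24169443 to 25233505, which lie before and after the stretch with the wide peaks. Stretches of 866 kb from 26018119 to 26884442 and of 778 kb from 29713031 to 30491206 followed. The longest stretch of the other chromosomes ranged from 0.931 Mb on chromosome 1 to 2.37 Mb on chromosome 15. The list gives no information on where reads could be mapped, so the part of mappability in these counts was not tested.

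Wide peaks set the middle apart. On chromosome 17, 11 of 547 peaks were at least 2 kb wide, or 2.01%. The share was 1.01% on all 20 chromosomes together and 0.954% on the other 19. Chromosome 10 had 20 such peaks and chromosome 15 also had 11. Chromosome 17 was chosen by such widths and 5 of its 11 wide peaks form 1 run, so these shares carry no interval. The narrowest of the 11 had 2240 bp, and the widest peak left out by this limit had 1785 bp. Of the 11, 10 lay in the middle, all between 21 and 27 Mb, 1 lay in the first part and none in the last. Together they covered 65.8 kb, or 20.3% of all covered bases of the chromosome. Only on chromosome 10 was that share higher, at 22%, and the other 19 averaged 6.43% ± 5.81 (SD). Chromosome 17, with 5.10% of the 10719 chromosomal peaks, held 7 of the 38 of at least 4 kb, and 3 of the 7 of at least 8 kb. Its peaks of at least 4 kb include all 5 of the run described below, and its 3 of at least 8 kb are all in that run.

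**Figure D3:**
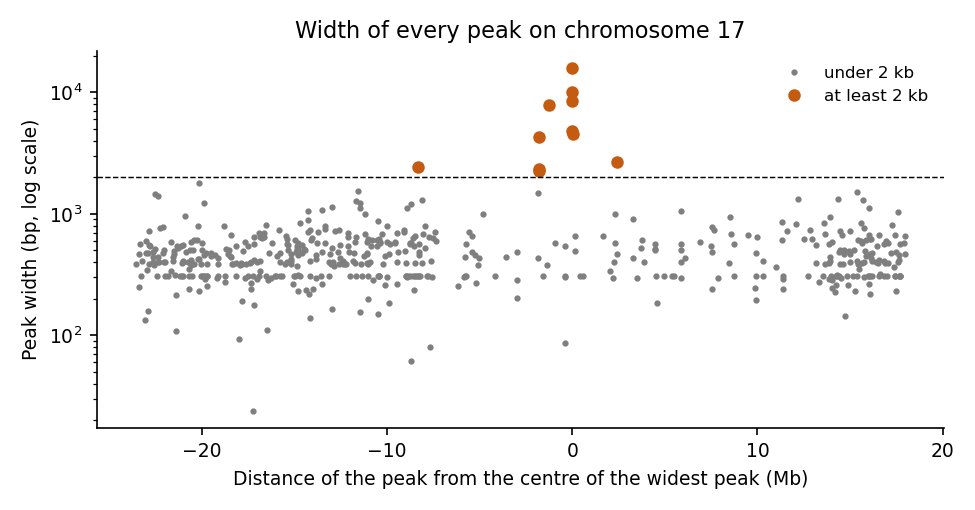
Width of each of the 547 peaks (vertical axis, bp on a log scale) by its distance from the centre of the widest peak (horizontal axis, Mb). Orange points are the 11 peaks of at least 2 kb (dashed line), of which 10 stand within 3 Mb of the widest; the row of grey points just over 300 bp is the commonest width of the list.

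The widest peak of the whole list, 15877 bp, ran from 23593785 to 23609661 and was 36.7 times as wide as the chromosome's median peak. It was the fourth in a run of 5 consecutive wide peaks. The run opened with a peak of 10127 bp from 23567370 to 23577496, the fourth widest on all chromosomes. After a gap of 1096 bp came one of 8526 bp from 23578593 to 23587118, the sixth widest. After 835 bp came one of 4815 bp from 23587954 to 23592768, and a gap of 1016 bp separated it from the widest. These first 4 peaks covered 93.0% of 42.3 kb. The run closed, after a wider gap of 8718 bp, with a peak of 4571 bp from 23618380 to 23622950.

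In total the run covered 43.9 kb of 55.6 kb, or 79.0%. Its 5 peaks were 0.914% of the peaks of chromosome 17 and held 13.6% of its covered bases on 0.134% of its span. When wide peaks in direct succession with gaps of at most 10 kb were joined, the 108 wide peaks of the 20 chromosomes formed 85 runs, of which 15 had more than 1 peak. The run on chromosome 17 was the only one with more than 3 peaks. The next by covered bases was a run of 3 on chromosome 10 from 17196358 to 17226479, with 17.4 kb covered. No peak stood close to the run on either side. The gap before it was 341 kb and the gap after it 96.0 kb. The part of mappability or read depth in the widths of the run was not tested.

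**Figure D4:**
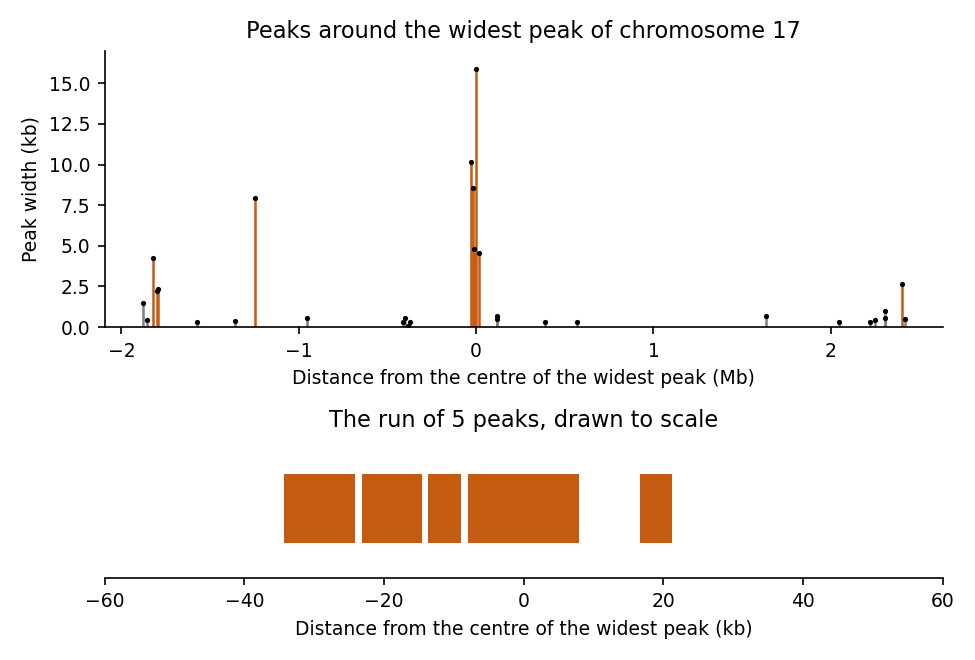
Upper panel: width (vertical axis, kb) of each peak around the widest peak, by distance from its centre (horizontal axis, Mb), with peaks of at least 2 kb in orange. Lower panel: the run of 5 wide peaks as orange boxes drawn to scale (horizontal axis, kb), in which 4 lie about 1 kb apart and the last stands 8718 bp away.

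The run was part of a longer stretch of wide peaks between ordinary ones. From 22 to 24 Mb there were 16 peaks, 6 of them wide: the run and a lone peak of 7930 bp from 22351729 to 22359658, with 111 kb free of peaks before it and 291 kb after it. The other 10 were narrow, with a median width of 343.5 bp and a range of 87 to 659 bp. The 6 wide peaks held 51.8 kb and the 10 narrow ones 3.95 kb. These 2 Mb had 2.79% of their length covered, the third highest of 482 windows of 2 Mb on all chromosomes, but only the 268th highest number of peaks. The windows next to it, 20 to 22 Mb and 24 to 26 Mb, had 0.609% and 0.179% covered. The 2 windows with a higher coverage were 18 to 20 Mb on chromosome 10 and 38 to 40 Mb on chromosome 18. They held 71 and 57 peaks, against 16 here. Of these peaks, 15 and 5 were wide, against 6 here.

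More wide peaks lay just before these 2 Mb. Between 21 and 22 Mb there were 3, one of 4264 bp from 21775048 to 21779311 and a pair of 2240 and 2354 bp, 1137 bp apart, from 21802578 to 21808308. A peak of 1479 bp from 21721355 to 21722833 opened this group after 1.13 Mb without a peak. From 24 to 26 Mb there was none, and the next, of 2674 bp, ran from 26004366 to 26007039. The remaining wide peak, of 2441 bp, lay in the dense first part from 15255992 to 15258432. Another peak followed it after 569 bp. From 27 to 37 Mb the middle was as sparse as from 21 to 27 Mb, with 5.40 and 5.33 peaks per Mb, but held no wide peak, and its widest had 1321 bp. From 16 to 21 Mb the density was 4.60 per Mb and the widest peak had 1002 bp.

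Chromosome 17 stayed near the top by covered share when wide peaks were left out. Without the 5 peaks of the run it had 0.6724% of the span covered, the second highest share. Chromosome 10 with all of its peaks had 0.723%, and chromosome 11 was almost level with 0.6720%. Without all peaks of at least 2 kb on any chromosome it had 0.620%, again second, after 0.672% on chromosome 11. In the middle part, 0.534% of the length was covered with the wide peaks and 0.232% without them. The first and last parts had 1.00% and 1.12%.

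**Figure D5:**
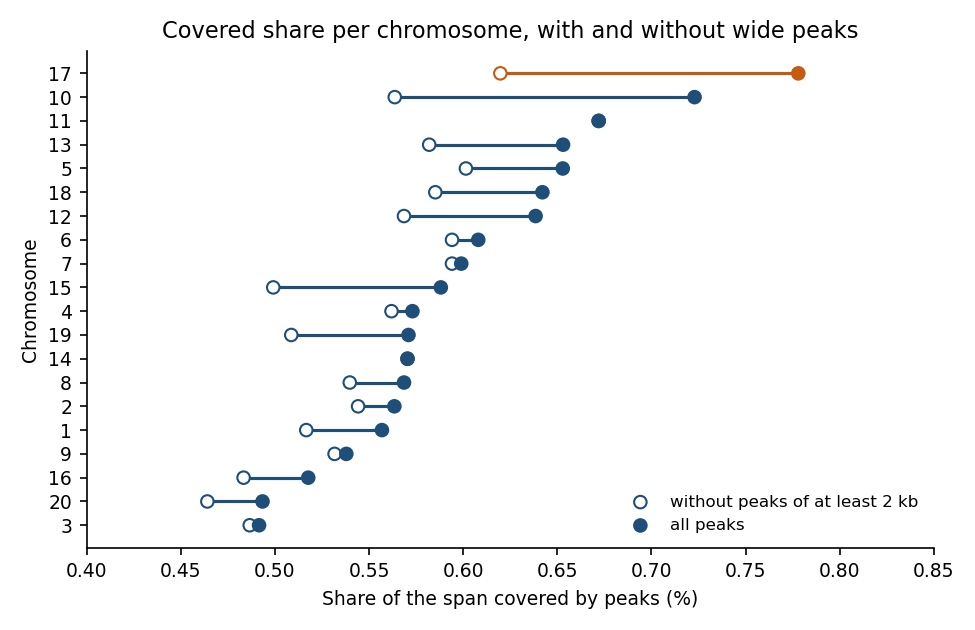
Share of the span covered by peaks (horizontal axis, percent) on each of the 20 chromosomes (vertical axis), for all peaks (filled circles) and without peaks of at least 2 kb (open circles), with chromosome 17 in orange. Chromosome 17 moves from 0.778% to 0.620%.

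A typical peak of chromosome 17 was of ordinary width. The median was 433 bp (95% exact interval of the median 406 to 462), the third lowest of the 20 chromosomes, and the other medians ran from 416.5 to 472 bp and their mean of 451 bp lay within this interval. The mean width, 591 bp, was the second highest, after chromosome 10. The commonest width of the list, just over 300 bp, belonged to 80 peaks, or 14.6% (95% exact binomial interval 11.8 to 17.9), against 16.1% on the other chromosomes. A further 75 peaks were narrower than that. By part, the median was 426 bp in the first (interval 403 to 464), 484 bp in the middle (404 to 560) and 407 bp in the last (389 to 464). These intervals overlap. Of the peaks of at least 1 kb, which were 5.10% on all chromosomes and 35 of 547 or 6.40% here, the first part held 15, the middle 15 and the last 5. In the middle that was 13.8% of its peaks, against 4.53% in the first part and 4.67% in the last. Only 5 of the 15 in the middle were under 2 kb. The other 10 are the wide peaks between 21 and 27 Mb, and stretches there were singled out for such peaks. These shares are therefore a description, without an interval.

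Spacing followed density for typical neighbours but not for the closest ones. The median distance between neighbouring midpoints was 37.1 kb on the chromosome as a whole (95% exact interval 29.1 to 40.5), close to the 39.0 ± 4.01 kb (SD) of the other 19. It was 32.6 kb in the first part, 81.0 kb in the middle and 29.2 kb in the last. Neighbours with midpoints within 5 kb of each other were about as frequent in all parts: 51 of 330 pairs in the first (15.5%, interval 11.7 to 19.8), 15 of 108 in the middle (13.9%, interval 7.99 to 21.9) and 15 of 106 in the last (14.2%, interval 8.14 to 22.3). In the run, gaps of 835, 1016 and 1096 bp fell outside this count, because midpoints of wide peaks lie further apart. Between edges, 16.3% of all pairs on the chromosome lay within 5 kb, and the parts were not counted that way. Isolated peaks, with more than 100 kb free on both sides, were found almost only in the middle, where they were 26 of 109. The first part had 1 among 331 and the last had none.

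Short-range grouping was ordinary. When peaks with gaps of at most 10 kb were joined, 311 of 547 stood alone (56.9%, against 57.9% ± 3.26, SD, on the other 19 chromosomes), 67 pairs and 26 triples formed, and only 5 groups had 4 or more peaks. The largest had 6, from 41262519 to 41294065, near the end of the chromosome, with widths up to 569 bp and 7.49% of 31.5 kb covered. Of the groups of 5, one was the run of wide peaks and the other ran from 38019951 to 38041083, with 11.4% of 21.1 kb covered. Groups of 4 ran from 8384812 to 8399170 and from 39676386 to 39684779. No group reached 8 peaks, as on 11 of the other 19 chromosomes, whose largest groups had a median of 6 peaks and a maximum of 42 on chromosome 10. In the dense first part the largest group was the one of 4 peaks near 8.39 Mb.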

How the data were processed

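Positions of ATAC-seq peaks were analysed for 1 series of 4 samples (2 biological replicates, each with a single-end and a paired-end run). The authors deposited 1 list with 3 columns, the sequence, start (from 0) and end of each peak in bp. Bowtie2 2.3.4.1, SAMtools, HOMER and bedtools are named per the submitters' processing notes, without role or order. No source used here gives the filters, the settings of peak calling, the genome build, how replicates were joined or whether the transposase offset was corrected.

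Chromosome 17, its windows and all lists were chosen with earlier results of these data known. Positions were converted to count from 1. Peaks were placed by their midpoint, and a span ends at the chromosome's last peak. The commonest width was exactly 306 bp, with 1757 peaks of the list. Wide peaks had at least 2 kb. The regions named are the widest peaks, the run and its neighbours, the longest stretches without a peak, the fullest and sparsest windows and the largest groups. Intervals given for shares are 95% exact (Clopper-Pearson) intervals, and those for medians are exact order-statistic intervals. They cover counting error only and treat peaks as independent, although peaks lie in groups. Python 3.11.15, numpy 2.4.6, pandas 2.3.3, scipy 1.17.1 and matplotlib 3.10.9 were used. The procedures were tested on simulated data. No sequence is shown, because no genome was used.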

Additional observations from a re-analysis of the deposited data

How the results depend on the processing

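Of 110 alternative values for 16 results on chromosome 17, 91 stayed within the 95% exact interval of the reported value or, where there is none, within 1.5 times of it. Alternatives for the 16 to 37 Mb share, the dense start and the covered share were chosen after seeing the data. No paired analysis was possible because peaks are not assigned to replicates in the list, which also prevents leaving out a replicate.

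Keeping only peaks at or above the list's median width, which removes peaks by construction, left 256 peaks with a median width of 592 bp, a median distance of 81.4 kb, 9.41% of neighbours within 5 kb, a longest stretch without a peak of 1.83 Mb, a longest block of 2 dense windows and a share of 0% at the commonest width. Outer parts of 20% put 29.98% of peaks in the first part and 46.3% in the inner part, and outer parts of 33% put 51.9% and 19.4% there. Wide peaks numbered 35 from 1 kb and 7 from 3 kb. Neighbours were close in 6.59% of pairs within 2 kb, in 23.63% within 10 kb, and in 10.3% within 5 kb after merging peaks at most 1 kb apart. Groups of at least 8 peaks numbered 2 with gaps of up to 20 kb, and 1 group had at least 6. The middle held 27.8% of peaks when its bounds were 15 and 38 Mb. Depth is unknown, so its effect was not tested.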

Other observations

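The closest neighbours on chromosome 17 were 316 bp apart, a peak from 39683542 to 39683847 and one of 616 bp from 39684164 to 39684779, in the dense last part. Close pairs also stood in the sparse middle: peaks of 194 and 479 bp from 33512471 to 33513479 were 336 bp apart. The next closest gaps were 347 bp before a peak at 38040579, 352 bp before one at 14049015 and 391 bp before one at 2994999.

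The narrowest peaks lay mostly in the dense first part, and none lay in the last part. A peak of 24 bp ran from 6374874 to 6374897, one of 62 bp from 14890473 to 14890534 and one of 80 bp from 15903880 to 15903959. One of 87 bp, from 23219482 to 23219568, lay in the stretch with the wide peaks. In all, 5 peaks were under 100 bp, the widest of them 94 bp, from 5573571 to 5573664 in the first part. Whether such narrow peaks are overlaps of wider calls was not tested.

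The share of the chromosome's covered bases by width showed how few peaks carried much of it. The 11 peaks of at least 2 kb held 20.3%, and the 80 of the commonest width held 7.57%. The median gap from a wide peak to its nearest neighbour was 1.14 kb with the run, which was singled out for its closeness. For the 6 wide peaks outside the run it was 5.87 kb, with a range of 0.569 to 111 kb, and for peaks of the commonest width it was 14.2 kb.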
